A study of Mus musculus with 6 samples.

Results

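The insulin-like growth factor axis was examined in testes of TAp73 knockout and wild type mice. It comprises the ligands Igf1 and Igf2, the receptor Igf1r and the binding proteins Igfbp1 to Igfbp7. The 10 genes were listed by name, and the list was chosen by someone who knew the scaled log2 signals of these arrays, knockout against wild type, so that contrast is given as a description. Their 14 probes were found through the accession that the array design gives for each probe, out of 39429 probes, of which 26055 were named by 19751 gene symbols. All 14 probes were well above background on all 6 arrays and 0 were saturated, so each member was measured in every testis.

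The samples were whole testes of 3 TAp73 knockout mice and 3 wild type mice, all male C57BL/6J animals aged 10 weeks, with 1 array of 1 green channel per mouse. Trp73 encodes p73, a relative of the transcription factor p53, and TAp73 is its form with the transactivation domain. The sources used here do not say how the knockout allele was made. The study asked about adhesion and maturation of sperm cells.

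Insulin-like growth factors are secreted peptides that signal through the receptor tyrosine kinase Igf1r, which engages insulin receptor substrates, PI3 kinase with Akt, and the Ras and MAP kinase cascade. Nearly all circulating ligand is held by binding proteins, which lengthen its life and limit its access to the receptor, and proteases release it. In the testis the ligands act on Sertoli, Leydig and germ cells, and in mice signalling through insulin family receptors is needed for Sertoli cell proliferation and for testis formation.

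The promoter of Igfbp3, the member with the largest difference, is shown beside that of Igfbp1, which lies next to it in the annotation with 0 protein-coding genes between them and whose groups overlapped. Both windows run from 250 bases before to 50 bases after a RefSeq transcript start, 5′ to 3′ on the gene's strand, in assembly GRCm38.p6. Igfbp3 is at chr11:7213874-7214173 on the minus strand and Igfbp1 at chr11:7197537-7197836 on the plus strand. Capitals mark matches to the TATA box letters TATANA on either strand, and the Igfbp3 capitals are 2 overlapping matches.
Igfbp3: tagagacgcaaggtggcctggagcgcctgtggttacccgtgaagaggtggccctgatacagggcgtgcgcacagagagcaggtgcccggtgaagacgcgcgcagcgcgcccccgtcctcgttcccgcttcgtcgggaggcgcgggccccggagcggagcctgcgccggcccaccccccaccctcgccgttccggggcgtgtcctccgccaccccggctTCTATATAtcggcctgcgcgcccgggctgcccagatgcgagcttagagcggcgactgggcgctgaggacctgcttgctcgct
Igfbp1: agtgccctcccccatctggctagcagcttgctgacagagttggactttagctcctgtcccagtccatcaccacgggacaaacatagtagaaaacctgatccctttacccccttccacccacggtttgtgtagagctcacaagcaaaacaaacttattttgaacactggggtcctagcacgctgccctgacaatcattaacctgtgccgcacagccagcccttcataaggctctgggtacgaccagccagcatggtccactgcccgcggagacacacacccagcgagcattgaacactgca
The Igfbp3 matches began 32 and 30 bases before the start, and Igfbp1 held 0. Of all 32851 promoter windows of this length, 24.7% held TATANA, as did 3 of the 14 windows of the 10 members, those of Igfbp3, Igfbp4 and Igfbp6. The GC content was 71.7% for Igfbp3 and 54.3% for Igfbp1. The p53 half-site consensus, searched on both strands, was in neither window. It was in 1 of the 14 windows of the members, upstream of Igf2, and in 8.36% of all windows. The GC box letters GGGCGG were in 5 of the 14 windows of the members, those of 4 of the 10 genes, and in 35.7% of all windows. A match describes these letters only, and no match says only that they are not in this window.

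Before the values, the labels were checked. Each array deposited as knockout in the scanner files matched, over probes, a column of the authors' value table labelled wild type, and each wild type array matched a column labelled knockout (6 of 6; correlations of deviations 0.83 to 0.99 with the match and 0.04 or lower with the next best). All directions here follow the scanner files, and under the value table's labels the differences that were called here and recomputed there, of Igfbp3, Jak2, Grb14, Ddit4, Irs2 and Deptor, had the opposite sign. In the scanner files the targeted gene read 566, 371 and 394 units in knockout and 1077, 975 and 1061 units in wild type testes at the 1 of its 3 Trp73 probes that was well above background on every array, a log2 difference of -0.99. The other Trp73 probes were well above background on 1 and 2 of the 3 knockout arrays, and read 4.81 to 17.2 and 23.1 to 39.1 units in knockout against 548 to 605 and 301 to 378 units in wild type testes. All 3 Trp73 probes were thus lower in the arrays that the scanner files label knockout. The value table labels the columns matching those arrays wild type. The sources used here do not place these probes against the deleted part of Trp73. Over arrays, 74.4% to 84.4% of probes were well above background. Knockout replicates 1 and 2 and wild type replicates 1 and 3 shared 1 slide, and knockout replicate 3 and wild type replicate 2 the other. Germ cell markers were measured for 27 of 27 genes, Sertoli markers for 24 of 25 and Leydig markers for 18 of 19. Of 18 markers of epididymis and efferent ducts, 11 were measured, 1 of these being saturated on at least 1 array, and 7 were not well above background on any array.

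Levels below are log2 processed signals minus the 75th percentile of the same array, so 0 is that percentile, and differences are knockout minus wild type. The percentile itself was 4137 to 5160 units of processed signal in knockout arrays and 5185 to 5688 in wild type arrays, a log2 difference of -0.26, which the scaling removes. Levels of different probes were not compared. Calls come from limma fitted over all 31801 tested probes, with a Benjamini-Hochberg adjusted p under 0.05 as the threshold. Since the members were listed with this contrast known, their calls are given as a description, with no p-value. Nothing says whether the mice were littermates, and the spread between arrays is that of 3 animals a group.

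Igfbp3, the main carrier of the ligands in serum and a gene that p53 induces in human cells, stood far below its wild type level. Its probe read 87.6, 102 and 83.7 units of processed signal in knockout replicates 1 to 3, against 655, 644 and 976 units in wild type replicates 1 to 3. The highest knockout testis was thus well under the lowest wild type testis. After scaling, the levels were -5.88, -5.34 and -5.71 in the knockouts and -3.12, -3.01 and -2.47 in the wild types, with a gap of 2.22 between the groups. The means were -5.64 ± 0.28 in knockout and -2.87 ± 0.35 in wild type testes (SD, n = 3 each). In knockout testes the level was lower by 6.85-fold, a log2 difference of -2.78 with an SE of 0.21. Of all tested probes, 19 had a lower difference. On the slide of 4 arrays the difference was -2.81, in the pair on the other slide -2.70, and leaving out each array in turn gave -2.93 to -2.58. The call was lost within slide 1, where 0 probes were called, and with normexp background correction, where the difference was -1.48 and again 0 probes were called. The call was also lost with replicate number as a block, where 9 of all tested probes were called lower and 1 higher. It held with slide as a block.

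**Figure D1:**
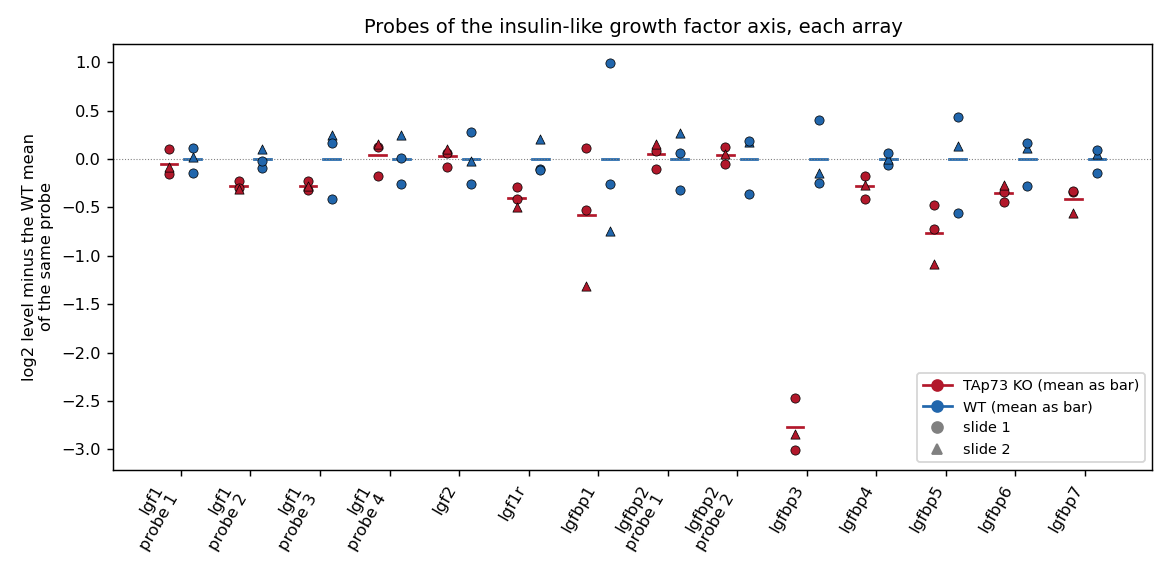
Log2 level of each member probe minus the wild type mean of that probe (vertical axis), with knockout arrays in red left of wild type arrays in blue; bars are group means, circles slide 1 and triangles slide 2. The highest Igfbp3 knockout array lies 2.22 below the lowest wild type array, while the groups of 9 probes overlap.

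Igfbp3 was the 1 member probe of 14 called lower, and 0 were called higher, where 2.64% of all tested probes were called lower, 0.248% higher and 2.88% either way. Before adjustment, limma's p was under 0.05 for 7 member probes that were lower and 0 that were higher, against 10.9% and 12.3% of all tested probes. Of the 14 probes, 5 had groups that did not overlap, all lower in the knockout, where 13.1% of all tested probes were lower without overlap, 18.6% higher and 31.7% either way. A difference below 0 was seen in 10 of the 14 probes and in 40.4% of all tested probes. With 1 probe per gene, the brightest, 8 of 10 genes had a difference below 0, as did 42.2% of 16947 measured genes. Igfbp3 was the 1 gene of 10 called, against 3.53% of measured genes called lower and 3.75% called either way. Without overlap 4 of the 10 were lower, against 16.0% of measured genes lower and 35.2% either way. Their median difference was -0.37, against 0.05 over all measured genes. With normexp 4 of 10 were below 0. Their median was then 0.04, and that of all tested probes was 0.22 against 0.06 as reported. Nothing is read from these shares, since the list was drawn up with the contrast in view. In whole testis, fewer cells of a type and less RNA per cell cannot be told apart.

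Among the ligands, Igf1, the growth hormone dependent ligand that is also made locally in the testis, was read by 4 probes, with differences of -0.28 to 0.04. Its brightest probe, A_55_P2031631, had levels of -1.60, -1.35 and -1.53 in knockout and -1.59, -1.43 and -1.34 in wild type testes. The groups overlapped, with a difference of -0.05 (SE 0.10). A_55_P2085984 also overlapped, at 0.04 (SE 0.16). A_55_P2085974 differed by -0.28 (SE 0.18) with overlap, its wild type levels of -3.34, -2.68 and -2.76 holding 1 array lower than all 3 knockouts. The dimmest probe, A_55_P2031636, had the groups apart, at -5.43, -5.50 and -5.51 in knockout and -5.29, -5.10 and -5.22 in wild type testes, a difference of -0.28 (SE 0.08) that was 0.45 with normexp. The probes thus disagree on whether the groups overlap, and their centred profiles differed from each other by a root mean square of 0.14 to 0.23.

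Igf2, the fetal growth ligand and an imprinted gene, had levels of -4.87, -5.01 and -4.83 in knockout and -4.65, -4.95 and -5.19 in wild type testes. The knockout arrays lay inside the wild type range, with a difference of 0.03 (SE 0.15). It was -0.02 within slide 1, -0.10 without wild type replicate 3 and 0.56 with normexp.

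Igf1r, the receptor tyrosine kinase for both ligands, had levels of -1.64, -1.76 and -1.85 in knockout and -1.45, -1.14 and -1.46 in wild type testes. Every knockout array was lower than every wild type array, by a gap of 0.18, and the difference was -0.39 (SE 0.11), which did not pass the threshold. The difference was -0.24 within slide 1 and -0.70 in the other slide's pair, larger in the pair than within slide 1.

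Of the other binding proteins, Igfbp4 and Igfbp7 had groups that did not overlap, and neither passed the threshold. Igfbp4, an inhibitor of ligand action that the protease Pappa cleaves, had levels of -3.45, -3.21 and -3.31 in knockout and -3.10, -3.04 and -2.98 in wild type testes. Its difference was -0.28 (SE 0.09), the same within slide 1 and in the other pair, and 0.04 with normexp. Igfbp7, a low-affinity relative of the family that is abundant in endothelium, had levels of -3.50, -3.49 and -3.72 in knockout and -3.30, -3.11 and -3.07 in wild type testes. Its difference was -0.41 (SE 0.10), -0.30 within slide 1, -0.61 in the other pair and -0.06 with normexp. All 6 arrays of both genes are ordered by group, with gaps of 0.10 for Igfbp4 and 0.19 for Igfbp7, far smaller than that of Igfbp3.

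Igfbp5 and Igfbp6 had lower knockout means with groups that overlapped. Igfbp5, which binds extracellular matrix, had levels of -5.46, -5.21 and -5.82 in knockout and -5.30, -4.60 and -4.31 in wild type testes. Wild type replicate 1 lay below knockout replicate 2, and the difference of -0.76 (SE 0.28) was -1.22 in the pair on the second slide, -0.53 within slide 1 and 0.05 with normexp. Igfbp6, which prefers Igf2 over Igf1, had levels of 1.83, 1.93 and 2.00 in knockout and 1.99, 2.38 and 2.44 in wild type testes. The overlap was 0.01, between knockout replicate 3 and wild type replicate 1, and the difference was -0.35 (SE 0.13). It ranged from -0.49 to -0.27 over the ways of processing the scanner files.

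Igfbp1 and Igfbp2 showed no separation. Igfbp1, a liver protein repressed by insulin, had levels of -5.83, -6.47 and -7.25 in knockout and -4.95, -6.68 and -6.20 in wild type testes. Its SD was 0.71 in knockout and 0.89 in wild type testes, the widest among the members, and its difference of -0.57 (SE 0.53) was -0.08 without wild type replicate 1 and 0.42 with normexp. Igfbp2, which like Igfbp1 carries an integrin-binding motif, was read by 2 probes whose centred profiles differed by a root mean square of 0.08. A_66_P135391 had levels of -0.61, -0.44 and -0.51 in knockout and -0.92, -0.38 and -0.37 in wild type testes. Both probes differed by 0.04 (SE 0.16 each), and the knockouts lay inside the wild type range.

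Igfbp2 and Igfbp5 are also next to each other, on chromosome 1. So the neighbours Igfbp3 and Igfbp1 had differences of -2.78 and -0.57, and the neighbours Igfbp5 and Igfbp2 differences of -0.76 and 0.04; the difference between neighbours was not tested.

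**Figure D2:**
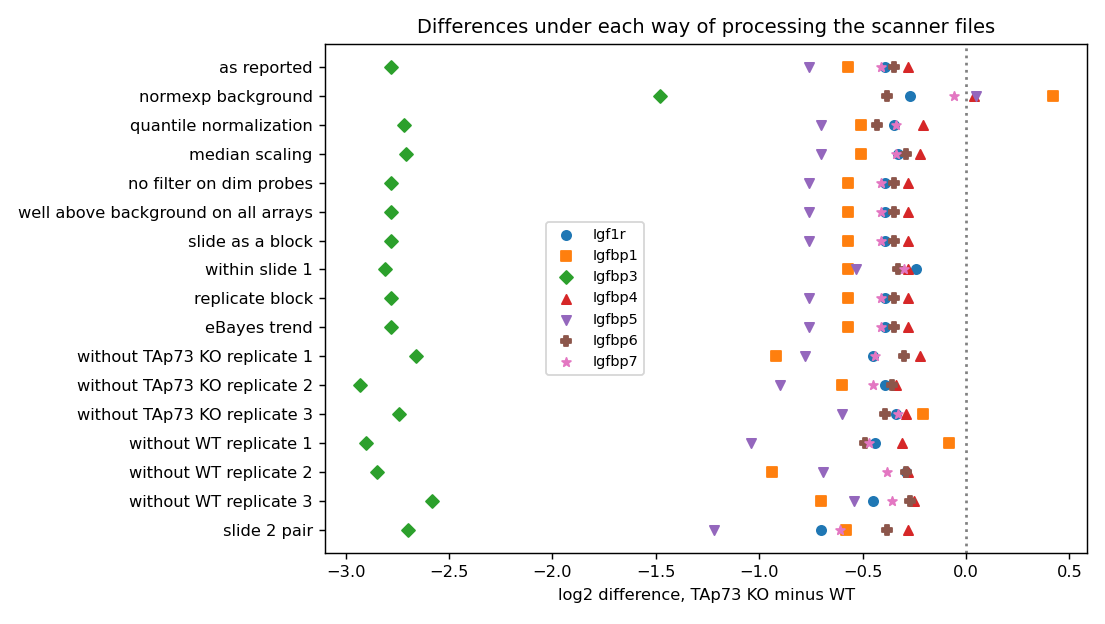
Log2 difference, knockout minus wild type (horizontal axis), of Igf1r and 6 binding proteins, under each way of processing the scanner files (rows). Igfbp3 stays between -2.93 and -1.48, with -1.48 under normexp, where Igfbp1, Igfbp4 and Igfbp5 lie above 0.

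The 3 genes with the profile most like that of Igfbp3 over the 6 arrays were 4930486L24Rik, Robo4 and Cd83, by root mean square differences of 0.18, 0.22 and 0.26 between centred log2 profiles. Robo4, a guidance receptor of endothelium, read 744, 551 and 450 units of processed signal in knockout testes and 4255, 4279 and 5904 in wild type testes. Cd83, a surface protein of activated dendritic cells and lymphocytes, read 71.7, 75.9 and 53 units in knockout and 602, 652 and 1039 in wild type testes. In each of the 3, as in Igfbp3, wild type replicate 3 was the brightest array. They were chosen for likeness to Igfbp3 over these same arrays, so this shared feature follows in part from the choice. Their differences were -2.92 for 4930486L24Rik, -2.80 for Robo4 and -3.23 for Cd83. The likeness rests on 6 arrays in 2 groups.

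**Figure D3:**
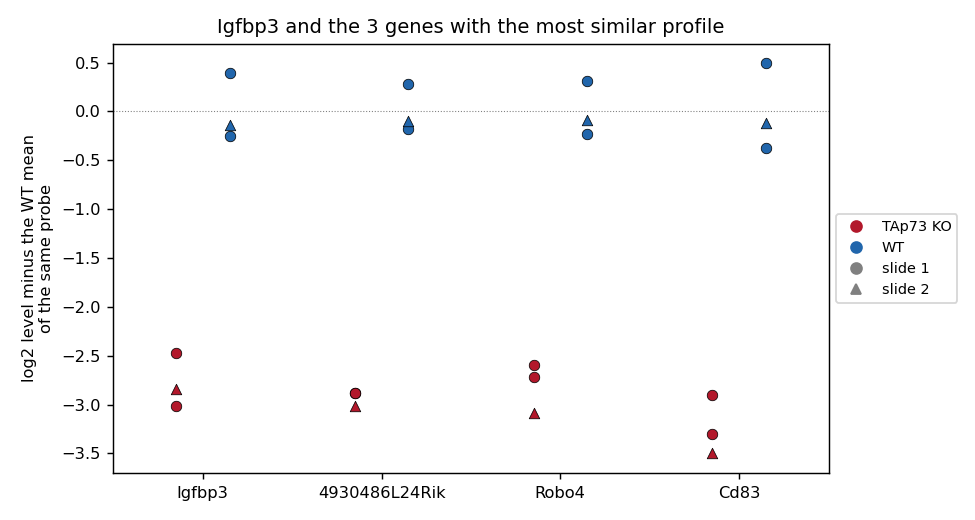
Log2 level minus the wild type mean of the same probe (vertical axis) for Igfbp3 and the 3 genes of the most similar profile; knockout arrays are red and left of wild type arrays in blue, circles slide 1 and triangles slide 2. The group differences are -2.78 for Igfbp3, -2.92 for 4930486L24Rik, -2.80 for Robo4 and -3.23 for Cd83.

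Some markers of cells that can express binding proteins were called lower in the same arrays. Among all 16947 measured genes, 3.53% were called lower and 0.218% higher. Limma's unadjusted p was under 0.05 for 13.6% of these genes lower and 12% higher. Whether the counts of the marker lists differ from these shares was not tested. That p was under 0.05 for 16 of 24 Sertoli markers lower and 2 higher, and for 6 of 18 Leydig markers lower and 2 higher. The counts were 9 lower and 0 higher for macrophage and immune markers, and 3 and 0 for endothelial markers. For peritubular myoid markers they were 1 and 2, and for markers of epididymis and efferent ducts 1 and 0. In what follows, fell means called lower. Of 13 measured endothelial markers 2 fell, Robo4 and Ly6c1, with a list median of -0.14 and a summed level, in units of the array's 75th percentile, of 5.30 to 5.63 in knockout and 6.33 to 6.79 in wild type testes. Without those 2 genes the sums overlapped, at 4.37 to 4.79 in knockout and 4.05 to 4.73 in wild type testes. Of 18 Leydig markers 3 fell (median -0.26; summed level 38.9 to 51.5 in knockout and 44.9 to 56.1 in wild type testes). Of 24 Sertoli markers 5 fell (median -0.38; 101 to 114 in knockout and 109 to 114 in wild type testes). The 5 Sertoli probes saturated on at least 1 array, such as that of Clu, held more than the rest of the sum. The other 19 summed to 38.8 to 39.4 in knockout and 51.3 to 53.8 in wild type testes. Without the 5 called Sertoli genes, and with saturated probes kept, the sums were 90.1 to 104 in knockout and 94.6 to 98.3 in wild type testes. Of 18 macrophage and immune markers 4 fell (median -0.28). Without Aif1, saturated on 5 arrays, they summed to 14.0 to 15.7 in knockout and 16.3 to 17.7 in wild type testes. Of 11 measured markers of epididymis and efferent ducts 1 fell (median 0.03). Of 12 peritubular myoid markers 1 fell (median -0.14). Without Actg2, saturated on 6 arrays, they summed to 19.5 to 20.3 in knockout and 19.2 to 24.0 in wild type testes. Blood cell markers had a median of -0.61 with 0 of 7 called (limma; unadjusted p under 0.05 in 3 lower, 0 higher), and a summed level of 8.77 to 15.2 in knockout and 13.9 to 19 in wild type testes. Of 27 germ cell markers, 14 were saturated on at least 1 array, so their differences are limited by saturation. The other 13 had a median of 0.20 with 0 called (limma; unadjusted p under 0.05 in 1 lower, 6 higher), and summed to 43.7 to 46.8 in knockout and 38.1 to 40.0 in wild type testes. The scaling adds 0.26 to the knockout levels of every list, and after it the median of all measured genes was 0.05. The part of the scaling in the germ cell median was not tested. Sums without saturated probes and without called genes were chosen after seeing the data. The part of these markers in the members' differences was not tested.

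Beyond the members, 4 lists of genes around the axis were measured, and among all 16947 measured genes 3.53% were called lower and 0.218% higher. Limma's p before adjustment was under 0.05 for 13.6% of all measured genes lower and 12% higher. Whether the counts of the 4 lists differ from these shares was not tested. The accessory genes hold the clearance receptor Igf2r, the insulin receptor, the ligand carrier subunit Igfals, proteases of the binding proteins and their stanniocalcin inhibitors, the Igf2 mRNA-binding proteins and the matricellular CCN family. Of 17 measured, 0 passed the threshold in either direction (limma; unadjusted p under 0.05 in 7 lower, 3 higher), with a median of -0.10. The smallest p-values were those of Ccn1, a matrix-associated CCN protein (-0.63, adjusted p = 0.0691), and Kazald1, a secreted protein related to the binding proteins (0.50, adjusted p = 0.083). Ccn1 read 400, 352 and 383 units in knockout and 625, 655 and 831 units in wild type testes. Igf2r, which clears Igf2, differed by -0.06 (adjusted p = 0.733), Insr by -0.11 (adjusted p = 0.584) and Pappa by 0.09 (adjusted p = 0.801). Of the 3 Insr probes, 2 shared this sign. Over the list 7 genes were lower and 2 higher without overlap. Beside Ccn1, the lower ones were Stc2 (-0.69), Htra1 (-0.45), Htra3 (-0.28), Ccn2 (-0.53), Ccn4 (-0.45) and Ccn5 (-0.90).

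Of 10 measured genes of the insulin and relaxin family and its receptors, 0 passed (limma; unadjusted p under 0.05 in 2 lower, 2 higher), with a median of -0.08. The smallest p-values were those of Insl6 and Rln1. Insl6, an insulin-like peptide of male germ cells, was saturated on all 6 arrays, so its difference has no meaning. Rln1, relaxin, differed by -1.11 (adjusted p = 0.123) and by 0.62 with normexp. It reached well above background on 1 of the 3 knockout arrays and on all 3 wild type arrays.

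Of 12 measured genes of the growth hormone axis, which drives Igf1 in liver, 1 fell, 0 rose and 11 did not pass (limma; unadjusted p under 0.05 in 4 lower, 2 higher), with a median of 0.02. Jak2, the kinase of the growth hormone receptor, read 1447, 1115 and 1094 units in knockout and 1983, 1877 and 2049 units in wild type testes. It fell by 0.45 on the log2 scale (SE 0.08, adjusted p = 0.0446), and with slide as a block the adjusted p was 0.0872. Of the remaining growth hormone genes, the transcription factor gene Stat5b differed by -0.31 (adjusted p = 0.137) and the receptor gene Ghr by 0.25 (adjusted p = 0.13), with 1 of its 2 probes of the other sign. The largest difference of the list was that of Socs3, -1.02 with overlap (limma adjusted p = 0.178). Cish differed by -0.36 without overlap (limma adjusted p = 0.15). Over the list 4 genes were lower and 2 higher without overlap.

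Of 58 measured genes of receptor signalling, 4 fell, 0 rose and 54 did not pass (limma; unadjusted p under 0.05 in 10 lower, 4 higher), with a median of -0.05. They were Grb14, Ddit4, Irs2 and Deptor. Grb14, an adaptor that inhibits the insulin receptor, read 1333, 1107 and 987 units in knockout and 2137, 1889 and 2056 units in wild type testes, and fell by 0.58 (SE 0.09, adjusted p = 0.0297). Irs2, a docking protein of insulin and IGF receptors, read 2411, 1725 and 1905 units in knockout and 3487, 3260 and 3073 units in wild type testes, and fell by 0.46 (SE 0.08, adjusted p = 0.0463).

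Ddit4 and Deptor are inhibitors of mTOR signalling. Ddit4 read 13549, 10793 and 11486 units in knockout and 19357, 20046 and 19086 units in wild type testes, a difference of -0.46 (adjusted p = 0.0391). Deptor read 562, 472 and 506 units in knockout and 873, 743 and 890 units in wild type testes, a difference of -0.44 (adjusted p = 0.0473). For Jak2 and these 4 genes every knockout array was lower than every wild type array, also after scaling. They were named because they were called lower, so this follows in part from the choice. Of the 58 receptor signalling genes, 14 were lower and 9 higher without overlap. Among all measured genes 16.0% were lower and 19.2% higher without overlap. The calls of Jak2 and these 4 genes were lost when any 1 of the 6 arrays was left out, with limma adjusted p-values of 0.0633 to 0.177. Their differences stayed between -0.63 and -0.39. With slide as a block the calls were lost as well, with limma adjusted p-values of 0.0534 for Grb14, 0.0772 for Ddit4, 0.0967 for Irs2 and 0.0962 for Deptor. Irs1, the related docking protein, differed by -0.89 with a wider error (SE 0.23, adjusted p = 0.0996). The kinase genes Akt1, Akt2 and Mtor differed by -0.22, -0.19 and -0.07, none past the threshold.

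**Figure D4:**
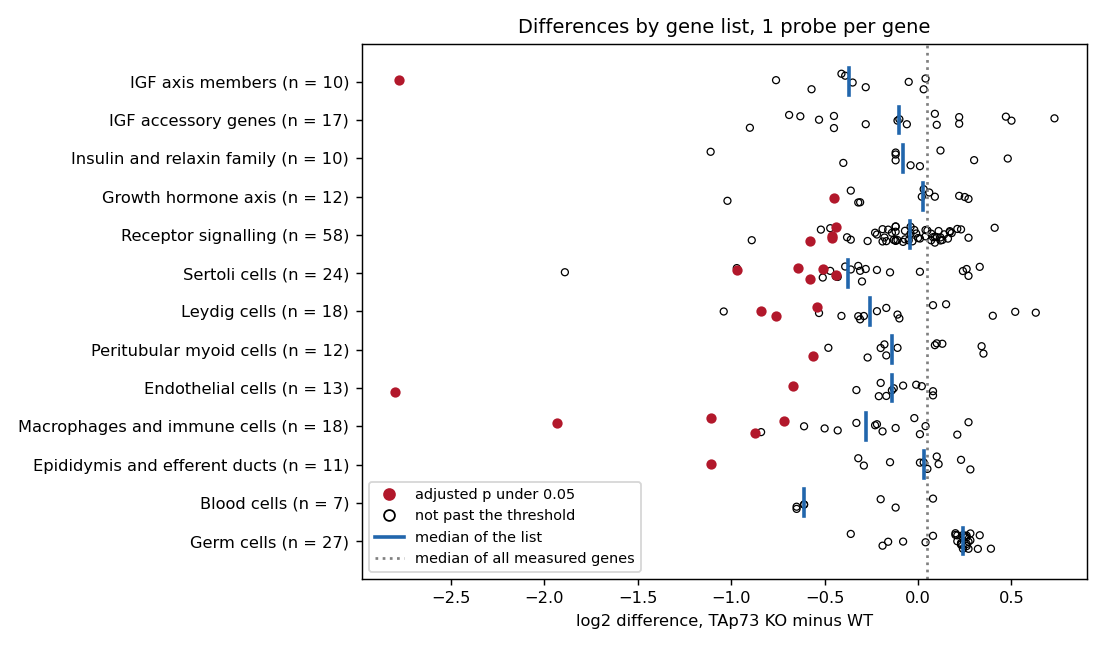
Log2 difference, knockout minus wild type (horizontal axis), of each measured gene of the members, of the 4 lists around the axis and of the cell type marker lists (rows), 1 probe per gene; filled points passed the threshold, blue bars are list medians and the dotted line is the median of all measured genes, 0.05. The members' median is -0.37, and those of the 4 lists around the axis lie between -0.10 and 0.02.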

How the data were processed

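Whole-testis RNA of 6 mice was hybridised to 1-colour arrays, 1 array per mouse. The labels' protocols name TRIzol extraction and Cy3 labelling, and a label field names biotin. Scanning output came from Feature Extraction 10.7.3.1 on a design for build mm9, per the file headers. Their spot intensity is the deposited, background-subtracted processed signal; its saturation, background and outlier marks (0 or 1) were used as other values deposited by the authors. The authors' value table holds linear intensity with column medians of 554.0 to 554.2; the sources used here do not say how it was normalized, and limma, without a version, is named per the submitters' processing notes.

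Control spots and spots marked non-uniform or population outlier (163 to 280 per array) were left out. Spots of 1 probe were averaged on the log2 scale and set relative to the 75th percentile of their array. Tests covered probes well above background on at least 3 of 6 arrays with at least 2 values per group. Accessions without versions were matched to RefSeq symbols and promoters of GRCm38.p6. Knockout minus wild type was fitted in R 4.3.3 by limma 3.58.1, with a two-sided moderated test and no covariate, with Benjamini-Hochberg adjustment over all tested probes, and checked on simulated data. In lists each gene is its brightest complete probe. Named are all member probes, and up to 6 called genes per list around the axis or else its 2 smallest p-values. The 3 profiles nearest to a called member and Trp73 are named too. Irs1, Stat5b, Ghr, Igf2r, Insr, Pappa, Akt1, Akt2, Mtor, Ly6c1, Stc2 and Rxfp1 were added after their values were seen. So were Socs3, Cish, Htra1, Htra3, Ccn2, Ccn4 and Ccn5. The members and lists were chosen with earlier results of these data known. The number of arrays limits the precision. Normexp used median spot and background signals (offset 50), as the files hold no mean spot signal.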

Additional observations from a re-analysis of the deposited data

How the results depend on the processing

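Over the scanner files, Igfbp3 kept its sign under all 16 alternatives (-2.93 to -1.48), and Igf1r, Igfbp6 and Igfbp7 kept theirs. Igf2 and both Igfbp2 probes kept their sign in 13 of 16, and the Igf1 probes in 11 to 16. Igfbp1, Igfbp4 and Igfbp5 kept theirs in 15 of 16, each exception being with normexp (0.42, 0.04 and 0.05). Called member probes, 1 lower as reported, were 1 when each array was left out in turn, and 0 with normexp, within slide 1 and with replicate number as a block. Over all probes, lower and higher calls were 838 and 79. They were 0 and 0 with normexp (limma; 804 and 1149 at an unadjusted p under 0.05) and within slide 1 (limma; 1809 and 1332). They were 868 and 217 with quantile normalization, 569 and 143 with median scaling, 349 and 13 with no filter on dim probes, and 1109 and 165 with probes well above background on all arrays. They were 299 and 15 with slide as a block, 1080 and 207 with a trend in eBayes, and 116 to 420 and 7 to 28 when each array was left out. Lower calls were 91.4% of all calls, 80.0% with quantile normalization and 79.9% with median scaling.

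The growth hormone axis, with 1 lower call, had 0 with normexp, median scaling, no filter, slide as a block, within slide 1, the replicate block and each array left out. Receptor signalling, with 4 lower calls, had 1 with median scaling, and 0 with normexp, no filter, slide as a block, within slide 1, the replicate block and each array left out. For the accessory genes and for the insulin and relaxin family, leaving out each array gave 0 to 1 lower calls: Stc2 (-0.88, adjusted p = 0.045) without wild type replicate 1 and Rxfp1 (-0.53, adjusted p = 0.0461) without knockout replicate 1. The cause of these changes was not tested.

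Under the authors' value table with its own labels, all probes gave 216 lower and 876 higher calls, the members 0 lower and 1 higher, the growth hormone axis 0 and 1, and receptor signalling 0 and 3. The differences there were 2.72 for Igfbp3, 0.40 for Jak2, 0.54 for Grb14, 0.52 for Ddit4, 0.42 for Irs2 and 0.39 for Deptor, all of opposite sign. The arrays cannot settle whether the replicate numbers pair animals, with 3 arrays a group. Knockout and wild type replicates 2 lay on different slides, as did knockout and wild type replicates 3. Same-numbered arrays had correlations of deviations of -0.03, -0.08 and -0.09, and 0 of 6 arrays correlated best with their own number. A fit with the number as a replicate block gave 9 lower and 1 higher calls over all probes, with the difference of Igfbp3 at -2.78. Choosing the least variable probe of a gene moved no count for the 4 lists by more than 1.5 times. The number of arrays limits the precision; signal over background was not set against the spread of single probes.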
